A study of Mus musculus with 8 samples.

Results

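The MYC, MAX and MXD network was examined in mouse bone marrow multipotent progenitors (MPPs) as 10 genes chosen by symbol: Myc, Mycn, Mycl, Max, Mxd1, Mxd3, Mxd4, Mxi1, Mnt and Mlx. These are 10 of the 37980 gene rows in the expression table, and all were found by their Ensembl identifiers. The rule used no measured value.

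The libraries came from 2 groups of 4, each library made from 1000 sorted cells. NA MPPs came from NA LSL/+; Vav-Cre mice on a C57BL/6 background. In these mice a NUP98-HOXA10hd fusion (NA), made of a segment of the nucleoporin NUP98 and the HOXA10 homeodomain, is expressed from the Rosa26 locus after Vav-Cre acts in blood cells. WT MPPs came from C57BL/6 wild-type mice, and the sources used here give no Cre for them. Both groups were sorted with the same gate, which required c-kit, Sca1 and CD135 on the cell surface and excluded cells with lineage markers, CD48 or CD150. The age of the mice for these libraries and the number of mice behind each library are not given in the sources used here. The p-values therefore measure the spread between libraries, which may be technical. The comparison addresses which transcripts differ in MPPs that carry NA.

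MYC proteins are transcription factors that bind DNA only as dimers with MAX, and the MYC-MAX dimer activates genes of ribosome production, metabolism and cell division. The MXD proteins, MXI1 and MNT compete for MAX and for the same E-box sites, and they recruit SIN3-histone deacetylase complexes that repress those genes. MLX is the partner of a parallel branch that holds the glucose-responsive factors MondoA and ChREBP and also binds some MXD proteins. In blood stem and progenitor cells MYC and MYCN overlap in function, and loss of both together depletes the stem cells.

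The E-box that MYC-MAX dimers prefer reads CACGTG, the same on both strands, and the promoters of the network genes that hold it are shown because they carry the site that these factors compete for. RefSeq promoters of build GRCm38.p6 were searched over a window of 300 bases, from 250 bases before to 50 after the gene start. The letters were found in 2349 of 32851 promoters (7.15%). Of the 9 members that matched the promoter table (11 windows), 4 held them: Mxd4 at chr5:34187711-34187960 (minus strand), Mnt at chr11:74830674-74830923 (plus strand), Mlx at chr11:101087040-101087289 (plus strand) and Max at chr12:76962246-76962498 (minus strand). Each is printed 5′ to 3′ up to its start, or to the end of the motif in Max, with CACGTG in capitals. Myc was the member with no entry.
Max: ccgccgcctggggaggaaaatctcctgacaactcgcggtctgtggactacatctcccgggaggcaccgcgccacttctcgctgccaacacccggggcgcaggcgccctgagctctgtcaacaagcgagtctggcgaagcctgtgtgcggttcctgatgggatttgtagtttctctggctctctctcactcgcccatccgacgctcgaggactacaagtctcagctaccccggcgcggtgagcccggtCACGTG
Mlx: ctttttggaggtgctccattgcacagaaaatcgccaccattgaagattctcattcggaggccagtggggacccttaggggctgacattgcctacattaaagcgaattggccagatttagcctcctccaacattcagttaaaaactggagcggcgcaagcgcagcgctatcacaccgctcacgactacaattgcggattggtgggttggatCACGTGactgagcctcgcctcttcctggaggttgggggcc
Mnt: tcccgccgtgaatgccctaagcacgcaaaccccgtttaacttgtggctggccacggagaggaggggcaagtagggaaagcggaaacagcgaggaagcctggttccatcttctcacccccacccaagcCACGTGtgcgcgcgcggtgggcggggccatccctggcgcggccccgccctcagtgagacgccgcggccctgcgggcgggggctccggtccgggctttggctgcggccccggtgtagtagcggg
Mxd4: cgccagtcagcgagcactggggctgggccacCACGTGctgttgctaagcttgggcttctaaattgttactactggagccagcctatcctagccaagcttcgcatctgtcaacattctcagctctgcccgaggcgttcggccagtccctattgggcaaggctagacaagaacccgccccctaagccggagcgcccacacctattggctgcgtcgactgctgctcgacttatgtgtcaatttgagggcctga
Counted from the start as position 1, with no position 0, the motif lay at -3 to 3 in Max, across the start itself. It lay at -40 to -35 in Mlx, at -123 to -118 in Mnt and at -219 to -214 in Mxd4. Transcripts of 2 of these 4 genes, Max and Mxd4, passed the test between NA and WT MPPs, and those of Mnt and Mlx did not (values follow). Of the matched members without the motif, Mycn, Mxd1 and Mxd3 passed, Mxi1 did not, and Mycl was not tested. Over all genes tested 17.9% passed. Of these member calls only that of Mycn was kept whichever library was left out. A match of letters is a description of the sequence only.

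Within the network, Myc was 2.01-fold higher in NA MPPs and Mycn was 1.73-fold higher in WT MPPs, and per kilobase of transcript the MYC gene with the higher mean differed between the groups. Max, the shared partner, and 3 antagonists, Mxd1, Mxd3 and Mxd4, were also higher in NA MPPs, but each of these 4 calls was lost when single libraries were left out. Mxi1, Mnt and Mlx did not pass the test, and Mycl was listed at 0 in every library. Levels are normalised read counts, that is RSEM counts divided by 1 size factor per library. Log2 fold changes are differences of mean log2(normalised count + 1), NA minus WT. Values written as a number with -fold are ratios of the mean normalised counts of the groups, so they can differ from the log2 fold change. A change was called at a limma adjusted p below 0.05 (Benjamini-Hochberg, two-sided) over the 11451 genes that reached 10 normalised counts in 4 or more libraries. Of the 10 members 9 entered the test and 6 were called, 5 higher and 1 lower in NA MPPs, against a background of 17.9% of all genes tested. Over all genes 10.1% were called higher and 7.87% lower. Mxd3, 1 of the 5, entered the test through the NA libraries, where it was high. With a filter of a mean of at least 50 normalised counts, which left Mxd3 out, 5 of 8 members and 1959 of 9000 genes were called. NA and WT values did not overlap for 4 members (Myc, Mycn, Max and Mxd3), where 22% of all genes tested did not overlap. The same limit holds for Mxd3 in this count and in the median that follows, since the NA libraries brought it into the test. The median change over the 9 members was 0.33, and over all genes tested it was -0.01.

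The libraries held between 3876908 and 4916947 estimated reads, and NA4, WT2 and WT3 were shallower (3876908 to 3960926) than the other 5 (4779635 to 4916947). NA4 and WT4 were each the library of their group closest to a weighted sum of the other 3, with a median deviation of 7.40% for NA4 (7.40% to 12.5% over the NA libraries) and 4.84% for WT4 (4.84% to 9.94% over the WT libraries). Member results are therefore also given without NA4 and WT4, where 4.58% of all genes tested were called. Xist, the RNA that silences an X chromosome in female cells, lay between 0.940 and 2.80 normalised counts in NA libraries and between 869 and 1285 in WT libraries. The Y-linked Eif2s3y lay between 516 and 666 in NA libraries and at most 0.888 in WT libraries. Sex and genotype therefore cannot be told apart in any result here. Hoxa10, part of which is in the fusion, lay between 298 and 371 in NA and between 130 and 149 in WT libraries, in the direction the labels give.

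**Figure D1:**
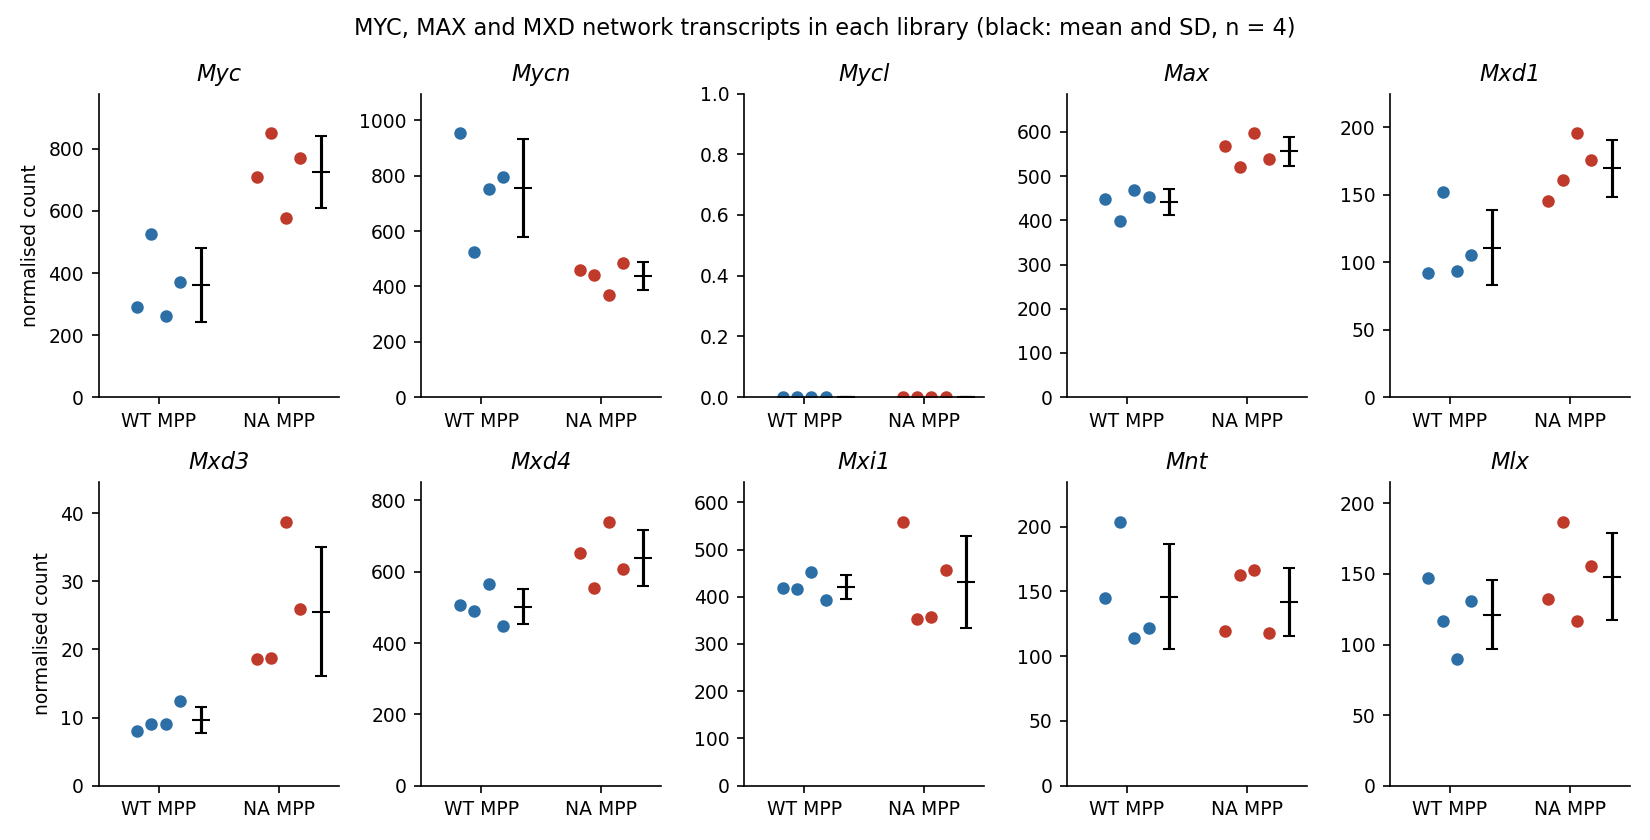
Normalised counts of the 10 network genes (y axis, linear, 1 panel per gene) in each of the 4 WT MPP (blue) and 4 NA MPP (red) libraries, with the mean and SD in black. Myc, Max and Mxd3 lie higher and Mycn lower in NA MPPs without overlap, and Mycl is at 0 throughout.

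Among the activators, Myc (ENSMUSG00000022346, chr15:61985391-61990374, plus strand, GRCm38) encodes the MYC protein, a short-lived factor induced by growth signals. Its normalised counts were 709 in NA1, 851 in NA2, 576 in NA3 and 770 in NA4. In the WT libraries they were 290 in WT1, 527 in WT2, 261 in WT3 and 370 in WT4. All 4 NA values lay above all 4 WT values, with NA3 the lowest of the NA libraries and WT2 the highest of the WT libraries. The means were 726 ± 116 (SD, n = 4) and 362 ± 119 (SD, n = 4), and the log2 fold change was 1.04 (SE 0.186, 95% interval 0.64 to 1.44, limma adjusted p = 0.00185). Left out together, NA4 and WT4 changed this little (1.04, limma adjusted p = 0.0219). The call was kept when any 1 library was left out, with log2 fold changes between 0.90 and 1.24.

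Mycn (ENSMUSG00000037169, chr12:12936093-12941914, minus strand) encodes the paralog N-MYC, which has the same dimer partner and E-box. Its counts in the NA libraries were 458 in NA1, 440 in NA2, 367 in NA3 and 484 in NA4. The WT libraries held 954 in WT1, 523 in WT2, 751 in WT3 and 795 in WT4. Every NA value was below every WT value, although WT2 lay close to the NA libraries. The means were 437 ± 50.1 and 756 ± 178 (SD, n = 4 each), and the log2 fold change was -0.76 (SE 0.155, 95% interval -1.09 to -0.43, limma adjusted p = 0.00433). The change was -0.78 without NA4 and WT4 (limma adjusted p = 0.0352), and leaving out any 1 library gave values between -0.93 and -0.64 that were all called. The study chose a set of differentially expressed transcription factors partly with these samples. The direction of Mycn here would not be independent evidence for such a set.

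WT2 stood apart from the other WT libraries in both genes, with the highest Myc and the lowest Mycn of its group. The log2 fold change without WT2 was 1.24 for Myc (limma adjusted p = 0.000148) and -0.93 for Mycn (limma adjusted p = 0.000322). Mycl (ENSMUSG00000028654, chr4:122995652-123002485, plus strand), which encodes L-MYC, was listed at 0 in all 8 libraries and was not tested. Whether a listed 0 means no transcript was not tested. Pdia4, which encodes a chaperone of the endoplasmic reticulum, was listed between 0 and 1.78 in the WT libraries and between 125 and 188 in the NA libraries. Prcc (0 to 17.0 in WT, 185 to 223 in NA) and Ttc5 (0 to 12.5 in WT, 332 to 437 in NA) differed in the same way. The cause of these differences was not tested.

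To set the 2 activators on 1 scale, counts were divided by the length of the longest protein-coding transcript of each gene. Per kilobase, Myc made up 63.9% of the Myc plus Mycn level in NA1, 68.9% in NA2, 64.2% in NA3 and 64.5% in NA4. In the WT libraries its share was 25.8% in WT1, 53.5% in WT2, 28.4% in WT3 and 34.8% in WT4. Myc was thus the larger of the pair in all 4 NA libraries and in 1 of 4 WT libraries, WT2. The mean share was 65.4% ± 2.35 for NA MPPs and 35.6% ± 12.5 for WT MPPs (SD, n = 4), and WT2 lay farthest from its group.

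The sum of both genes did not separate the groups. It was 474, 528, 384 and 510 normalised counts per kilobase in NA1 to NA4, and 481, 421, 393 and 456 in WT1 to WT4. These ranges overlapped, with NA3 below every WT library, and the means were 474 ± 64.3 in NA and 437 ± 38.8 in WT MPPs. With the median length of coding transcripts in place of the longest, the mean share of Myc was 70.5% in NA and 40.9% in WT MPPs, and the sums were 573.5 and 493 per kilobase. These shares and sums were described without a test.

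**Figure D2:**
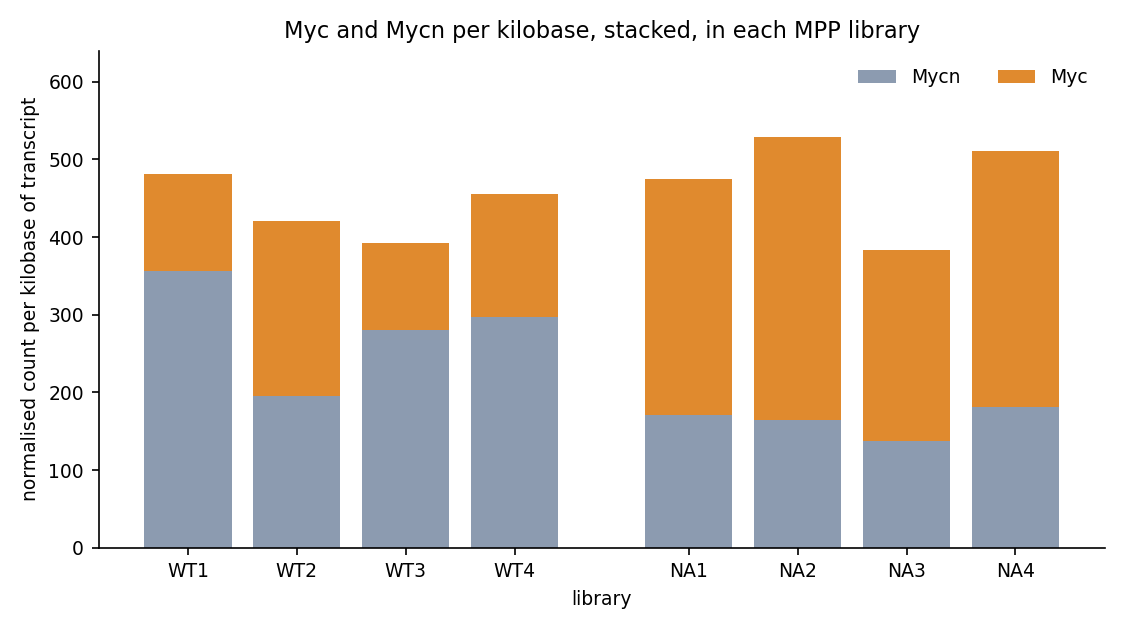
Stacked normalised counts per kilobase of transcript (y axis, linear from 0) of Mycn (grey) and Myc (orange) in each MPP library. Myc forms 63.9% to 68.9% of the bar in NA libraries and 25.8% to 53.5% in WT libraries, while the total height overlaps between groups.

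Max (ENSMUSG00000059436, chr12:76937269-76962201, minus strand) encodes the obligate partner of every MYC protein and of most antagonists. Its counts were 568 in NA1, 522 in NA2, 597 in NA3 and 540 in NA4. In the WT libraries they were 448 in WT1, 399 in WT2, 468 in WT3 and 452 in WT4. The groups did not overlap, and the spread within each was small. Means were 557 ± 33.1 and 442 ± 30.0 (SD, n = 4 each), 1.26-fold higher in NA, with a log2 fold change of 0.33 (SE 0.0974, 95% interval 0.12 to 0.54, limma adjusted p = 0.0297). The call was lost without NA4 and WT4 (0.36, limma adjusted p = 0.155) and without NA3, NA4, WT1, WT2 or WT4, where the limma adjusted p reached at most 0.0748.

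Of the antagonists, Mxd1 (ENSMUSG00000001156, chr6:86647042-86669161, minus strand) encodes MAD1, which rises as myeloid cells mature and stop dividing. It was at 146 in NA1, 161 in NA2, 196 in NA3 and 176 in NA4. WT1 held 92.3, WT2 152, WT3 93.4 and WT4 106. WT2 again stood above the rest of its group and overlapped the lowest NA library, NA1. The means were 170 ± 21.4 and 111 ± 28.0 (SD, n = 4 each), 1.53-fold higher in NA, with a log2 fold change of 0.63 (SE 0.185, 95% interval 0.23 to 1.03, limma adjusted p = 0.0305). The change was 0.60 without NA4 and WT4 (limma adjusted p = 0.199), and the call was kept only when NA1 or WT2 was the library left out. Leaving out NA2, NA3, NA4, WT1, WT3 or WT4 ended it, with limma adjusted p up to 0.0900.

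Mxd3 (ENSMUSG00000021485, chr13:55325168-55329823, minus strand) encodes MAD3, the family member known from S phase of dividing progenitors. Its counts were low: 18.7 in NA1, 18.8 in NA2, 38.8 in NA3 and 26.0 in NA4, against 7.99 in WT1, 9.06 in WT2, 9.11 in WT3 and 12.4 in WT4. The groups did not overlap, and NA3 held the highest value. The 4 NA libraries alone were enough for Mxd3 to pass the filter on low values, and of the WT libraries only WT4 reached 10. Its presence in the test therefore rests on the group where it was high. The means were 25.6 ± 9.45 and 9.65 ± 1.93, 2.65-fold higher in NA, with a log2 fold change of 1.27 (SE 0.403, 95% interval 0.41 to 2.14, limma adjusted p = 0.0420). Without NA4 and WT4 it was 1.36 (limma adjusted p = 0.209), and the call was lost when NA2, NA3, NA4 or any 1 WT library was left out (limma adjusted p up to 0.121). Mxd3 shares exon bases with Prelid1 on the other strand, so reads of the pair may be mixed if counting ignored strand.

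Mxd4 (ENSMUSG00000037235, chr5:34173883-34187720, minus strand) encodes MAD4, a family member found in cells that leave the cycle. NA libraries held 652 in NA1, 555 in NA2, 740 in NA3 and 607 in NA4. WT libraries held 507 in WT1, 489 in WT2, 565 in WT3 and 448 in WT4. WT3 lay above NA2, so the groups overlapped in 1 pair of libraries. Means were 638 ± 78.7 and 502 ± 48.3 (SD, n = 4 each), 1.27-fold higher in NA, with a log2 fold change of 0.34 (SE 0.111, 95% interval 0.10 to 0.58, limma adjusted p = 0.0468). Without NA4 and WT4 it was 0.31 (limma adjusted p = 0.244), and leaving out NA1, NA3, NA4, WT1, WT2 or WT4 also ended the call (limma adjusted p up to 0.155). The antisense gene Gm42846 shares exon bases with it. Genes on the other strand also share exon bases with Mxi1 (Gm10197), Mlx (Psmc3ip), Mlxip (Gm15747) and Mlxipl (Gm43500). The limit given for Mxd3 applies to these too.

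Mxi1 (ENSMUSG00000025025, chr19:53310518-53375810, plus strand), the antagonist also known as MAD2, did not pass the test. Its counts ran from 353 (NA2) to 559 (NA1) in NA MPPs and from 392 (WT4) to 453 (WT3) in WT MPPs, and the wider NA range enclosed the WT range. The log2 fold change was 0.01 (SE 0.140, 95% interval -0.29 to 0.31, limma adjusted p = 0.964), and it was -0.06 when libraries were scaled to equal totals. Mnt (ENSMUSG00000000282, chr11:74830920-74845725, plus strand) encodes a widely expressed antagonist that persists through the cell cycle. It ran from 118 (NA4) to 166 (NA3) in NA and from 114 (WT3) to 204 (WT2) in WT MPPs, with a log2 fold change of -0.02 (SE 0.202, 95% interval -0.46 to 0.41, limma adjusted p = 0.948). The interval of Mnt includes a change as large as that of Max or Mxd4, and that of Mxi1 ends just under them.

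In the parallel branch, Mlx (ENSMUSG00000017801, chr11:101087277-101092207, plus strand) ran from 116 (NA3) to 187 (NA2) in NA and from 89.9 (WT3) to 147 (WT1) in WT MPPs. The ranges overlapped, and the log2 fold change was 0.29 (SE 0.196, 95% interval -0.13 to 0.71, limma adjusted p = 0.332). Mlxip, which encodes MondoA, the glucose-sensing partner of MLX, was at 731, 619, 802 and 678 in NA1 to NA4 and at 527, 590, 550 and 521 in WT1 to WT4. The groups did not overlap, and the log2 fold change was 0.37 (SE 0.101, limma adjusted p = 0.0225). That call was lost without NA4 and WT4 (limma adjusted p = 0.150) and without NA4, WT1 or WT4 (limma adjusted p up to 0.0784). Mga, which encodes a further MAX partner of a repressive complex, had 376 ± 34.0 counts in NA MPPs against 350 ± 32.2 in WT MPPs (log2 fold change 0.11, limma adjusted p = 0.555). Mlxipl, which encodes ChREBP, was at 3.73 in NA1 and 3.55 in WT1, was listed at 0 elsewhere, and was not tested.

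The thioredoxin-binding protein gene Txnip, the best known target of MondoA, was lower in NA MPPs, at 3476 ± 167 against 4343 ± 478 in WT MPPs. Its log2 fold change was -0.32 (limma adjusted p = 0.0188), and the call was lost without NA4 and WT4 (limma adjusted p = 0.101). Its paralog Arrdc4, another target of the same factor, was at 234 ± 31.9 and 245 ± 8.85 (log2 fold change -0.08, limma adjusted p = 0.724).

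**Figure D3:**
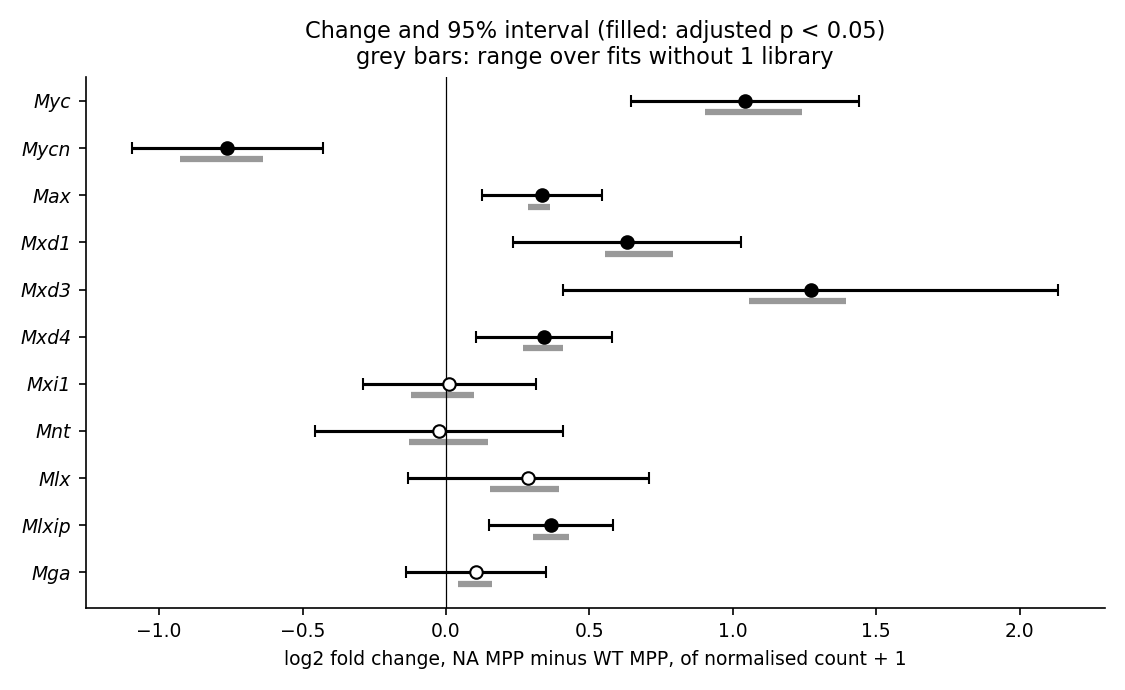
Log2 fold change of the 9 tested members and of Mlxip and Mga (x axis, NA MPP minus WT MPP, of normalised count + 1) with 95% intervals, filled where the limma adjusted p was below 0.05. Grey bars give the range over fits that leave out 1 library, which stays on the same side of 0 in all genes shown but Mxi1 and Mnt.

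The order of the network genes by level was read per kilobase of the longest protein-coding transcript. In NA MPPs Myc (311 ± 49.5) and Max (287 ± 17.0) stood highest, and their ranges over libraries overlapped. Mxd4 (165 ± 20.3) and Mycn (164 ± 18.7) followed, apart from Max but not from each other. Mxi1 (85.6 ± 19.4) and Mlx (75.3 ± 15.6) overlapped below them, and Mxd1 (36.3 ± 4.59), Mnt (30.9 ± 5.75) and Mxd3 (19.3 ± 7.12) came last with each neighbour overlapping the next.

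In WT MPPs Mycn led (283 ± 66.6), followed by Max (227 ± 15.4), Myc (155 ± 50.9) and Mxd4 (130 ± 12.5), and each of these overlapped the next. Mxi1 (83.5 ± 4.96), Mlx (61.6 ± 12.4) and Mnt (31.8 ± 8.87) lay apart from their upper neighbours, Mxd1 (23.7 ± 6.00) overlapped Mnt, and Mxd3 (7.27 ± 1.45) was lowest. The activators changed place between the orders: Mycn was above Myc in the WT means and below it in the NA means, with either transcript length. The place of Mxi1 depends on the length: with the median coding length it was at 289 ± 65.5 per kilobase in NA MPPs, level with Max (289 ± 17.2), and at 282 ± 16.7 in WT MPPs, overlapping Mycn (291 ± 68.5) and above Max (229 ± 15.6).

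The summed antagonists (Mxd1, Mxd3, Mxd4, Mxi1 and Mnt) lay between 297 and 369 per kilobase in NA MPPs and between 252 and 293 in WT MPPs. The groups did not overlap on that scale, but with the median coding length they did (597 to 751 in NA and 539 to 619 in WT MPPs). The sum of Myc and Mycn divided by the sum of antagonists was 1.43 ± 0.312 in NA (1.04 to 1.78) and 1.60 ± 0.226 in WT MPPs (1.37 to 1.81), and these ranges overlapped. That ratio also depends on the transcript length used, and with the median coding length it was 0.850 in NA and 0.842 in WT MPPs.

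Genes that MYC is known to activate were taken from 3 lists, for ribosome biogenesis, for metabolism and for the cell cycle and translation. Of 74 genes 72 were tested, and 15 were lower (20.8%) and 4 higher (5.56%) in NA MPPs, with 53 not called, beside 7.87% lower and 10.1% higher over all genes tested. The median log2 fold change was -0.15, and 61.1% of the genes lay below 0 against 51.2% of all genes tested. With libraries scaled to equal totals the median was -0.22, where that of all genes was -0.08. When NA4 and WT4 were left out 2 were lower and 3 higher, with a median of -0.10, where 4.58% of all genes tested were called.

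Of 32 ribosome biogenesis genes 7 were lower, among them Rrp9 (-0.91) and Nop2 (-0.84), which act in processing and methylation of ribosomal RNA. Ubtf, the factor that opens ribosomal DNA for RNA polymerase I, was the 1 gene higher (0.36). Of 27 metabolism genes 6 were lower and 2 higher. Cad, which encodes the enzyme that starts pyrimidine synthesis and is a classical MYC target, fell from 202 ± 7.46 in WT to 84.7 ± 18.5 in NA MPPs (log2 fold change -1.27, limma adjusted p = 0.000279). Slc7a5, an amino acid transporter, was also lower (-0.91), and Ppat, the entry enzyme of purine synthesis (0.96), and the hexokinase gene Hk2 (0.67) were higher. Of 13 tested cell cycle and translation genes the mitochondrial chaperonin gene Hspe1 (-0.40) and Cdk4 (-0.39), the kinase of early G1, were lower, and Ccnd2, a D-type cyclin, was higher (0.52).

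Of 9 genes that MYC is known to repress 8 were tested, 3 were higher and 1 lower in NA MPPs, and the median log2 fold change was 0.34. That was 50% of those tested, beside 17.9% called over all genes tested. Gadd45a, a stress gene that halts the cycle, had 152 ± 17.4 counts in NA MPPs against 20.4 ± 8.68 in WT MPPs (log2 fold change 2.92, limma adjusted p = 1.41e-05). Cdkn1b, which encodes the cell cycle inhibitor p27, rose by 0.87 (limma adjusted p = 0.00597), and Ndrg1, named for its repression by N-MYC, rose by 0.56 (limma adjusted p = 0.00495). Cebpa, a myeloid transcription factor, fell by 1.09 (limma adjusted p = 0.0324). The changes of Cdkn1a (1.27), Cdkn2c (0.11), Cdkn1c (0.02) and Ndrg2 (-0.63) did not pass, and Cdkn2b was too low to test. Of the 8 genes 2 were called without NA4 and WT4, both higher, where 4.58% of all genes tested were called.

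Partner proteins of the network were described in the same way, beside the 17.9% of all genes tested that were called in either direction. Of 14 genes of the SIN3-histone deacetylase complexes that MXD proteins recruit, 2 were higher, Sap30 (2.66) and Ing2 (0.64), and 2 lower, Brms1 (-1.16) and the deacetylase gene Hdac1 (-0.48), 28.6% in all, with a median of 0.13. Of 17 MYC cofactors 5 were higher, led by the acetyltransferase gene Crebbp (1.55) and the elongation factor gene Ccnt1 (0.68), and 2 were lower, the chromatin remodelling genes Smarcb1 (-0.69) and Ruvbl2 (-0.40). That was 41.2% of the list, and its median was -0.04. Of 17 genes that set the stability of MYC protein, the kinase gene Gsk3b (0.68) and the ubiquitin ligase gene Fbxw7 (0.54), which act in its degradation, were higher and the ligase gene Huwe1 was lower (-0.70), a share of 17.6%, near the background, with a median of -0.01. Sap30, Crebbp, Gsk3b and Huwe1 stayed called without NA4 and WT4.

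**Figure D4:**
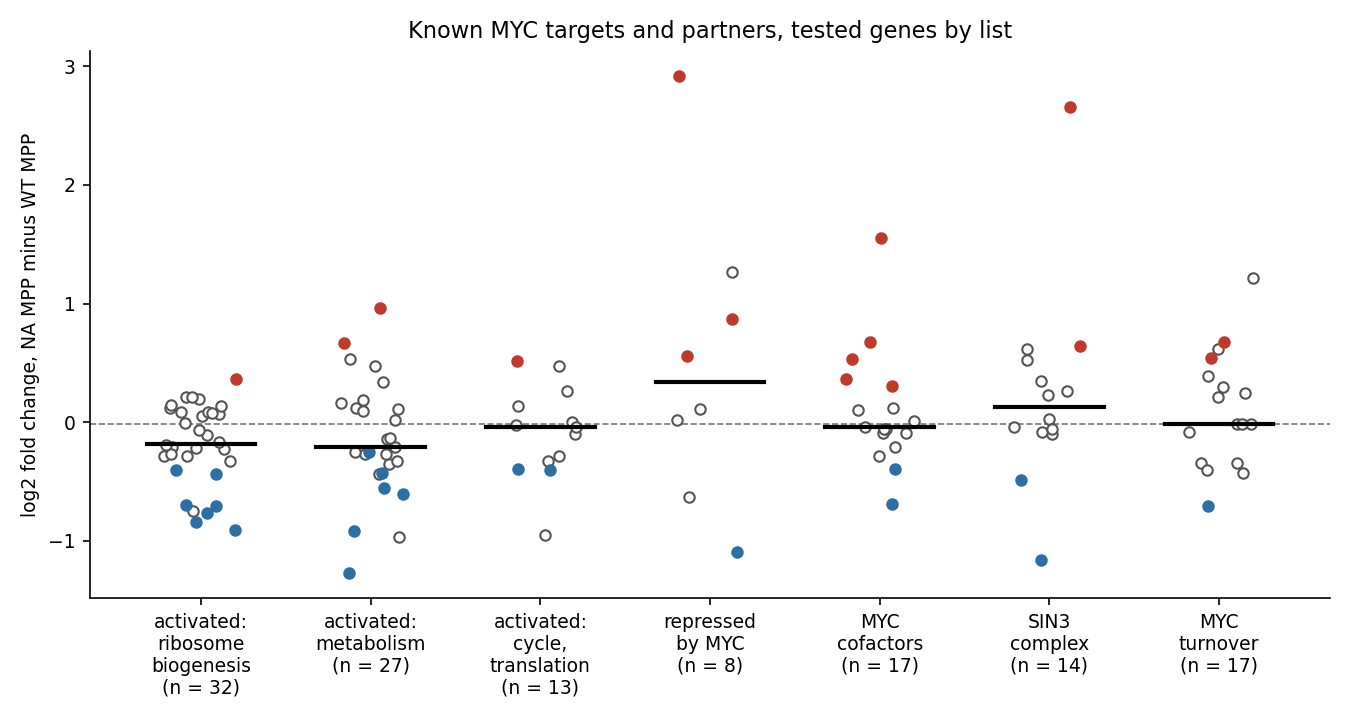
Log2 fold change (y axis, NA MPP minus WT MPP) of each tested gene in the lists of known MYC targets and partners, red where higher and blue where lower at a limma adjusted p below 0.05, open where not called. Black lines are list medians and the dashed line the median of all genes tested (-0.01).

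Other gene groups also differed between NA and WT MPPs. Myc is itself among the genes that cells induce within minutes of stimulation or handling. Of 20 tested immediate early genes 13 were higher and 0 lower in NA MPPs by limma, with a median of 1.47, led by the AP-1 genes Fos (3.37) and Fosb (2.83). That was 65% of those tested, beside 10.1% higher over all genes tested. Of the 20 genes 7 were called higher without NA4 and WT4, where 4.58% of all genes tested were called. The summed level of the list lay between 48760 and 58677 normalised counts in NA and between 8652 and 25480 in WT libraries. WT2, which had the highest Myc and Mxd1 and the lowest Mycn of the WT libraries, also had the highest immediate early sum of the WT libraries. Of the NA libraries, NA3 had the highest sum (58677), the lowest Myc (576), the lowest Mycn and the highest Mxd1. In the WT group the sum was 8652 in WT1, with Myc at 290, and 21821 in WT3, with Myc at 261. The part of the immediate early genes in the Myc, Mycn and Mxd1 results was not tested.

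Among cell division genes, 5 of 20 G2 and M phase genes were higher and 0 lower by limma, with a median of 0.61. That was 25% of the list, beside 10.1% higher over all genes tested. The spindle gene Nusap1 (1.99) and the mitotic kinase gene Aurkb (1.73) led them. Without NA4 and WT4, 1 of the 20 was called, near the 4.58% called over all genes there. The sum of the G2 and M phase genes lay between 1768 and 2040 in NA and between 923 (WT2) and 1585 in WT libraries. Of 19 tested S phase genes Rrm2, a subunit of ribonucleotide reductase (1.65), and the histone message binding gene Slbp (0.46) were higher and the helicase gene Mcm7 (-0.62) was lower. These 3 are 15.8% of the list, no more than the 17.9% called over all genes, and the sums of the list overlapped (6269 to 7031 in NA and 6130 to 7153 in WT libraries). Rrm2 reached 10 normalised counts in 4 NA and 2 WT libraries, so its place in the test rests on the group where it was high. Without NA4 and WT4, 0 of the 19 were called higher and 1, Mcm7, was called lower. The part of the cell division genes in the Mxd3 result was not tested.

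The sorted cells carried the transcripts of the gate. Kit (log2 fold change 0.19, limma adjusted p = 0.169) and Flt3, which encodes CD135 (0.07, limma adjusted p = 0.554), did not pass the test. The same held for Cd34, which the gate did not use (-0.10, limma adjusted p = 0.359). Both Ly6a, the gene of Sca1 (-0.28, limma adjusted p = 0.0257), and Cd48, a marker excluded by the gate, were lower in NA MPPs (Cd48 -1.58, limma adjusted p = 0.00711). Both calls ended without NA4 and WT4 (limma adjusted p = 0.163 for Ly6a and 0.0675 for Cd48), and that of Ly6a held in 2 of 8 fits that left out 1 library. Slamf1, which encodes CD150, did not pass (-0.52, limma adjusted p = 0.570). In bulk RNA of this kind, fewer cells of a type and less RNA per cell cannot be told apart.

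Markers of neighbouring cell types were counted in the same way, beside 10.1% of all genes tested called higher and 7.87% lower. Of 10 long-term stem cell genes 3 were higher, led by Hlf (0.93) and Mllt3 (0.55), and Tek was lower (-0.91). The median of the list was -0.05 with 6 of 10 genes below 0, and its sum lay between 6228 and 7274 in NA and between 4326 and 4444 in WT libraries. Of 12 lymphoid genes 2 were tested and Dntt was lower (-2.53), with sums from 159 to 266 in NA and from 406 to 511 in WT libraries, and Igll1, Cd3e and Cd3g were listed at 0 in all libraries. Of 12 granulocyte and monocyte genes 5 were tested and Mpo (-1.50) and Prtn3 (-0.41) were lower, with sums from 3130 to 3370 and from 3574 to 4684, and Elane was listed at 0 throughout. Of 12 erythroid genes 3 were tested and Hbb-bt was lower (-1.99), with overlapping sums (4665 to 5349 and 4860 to 5080) and Alas2 at 0 in all libraries. None of the 6 tested megakaryocyte genes or the 1 tested mast cell and basophil gene of 8 was called, with sums from 2798 to 3102 and from 2617 to 2771 for the former and from 17.9 to 26.1 and from 1.14 to 19.5 for the latter, of which 5 genes were at 0 throughout. Without NA4 and WT4, 2 long-term stem cell genes were called higher and 1 lower, and 0 granulocyte and monocyte genes were called. In that fit 1 lymphoid and 1 erythroid gene were called lower, where 4.58% of all genes tested were called. The part of these markers in the network results was not tested.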

How the data were processed

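RNA was measured by sequencing in 4 NA and 4 WT MPP libraries, grouped by sample titles. cDNA was amplified before tagmentation. The authors quantified genes with RSEM and used DESeq2, on mm10 per the submitters' notes. Versions, annotation and strand use are not given in the sources used here. The deposited values are a signal, normalised counts: from 98.5% to 99.1% of low values per library were whole multiples (tolerance 0.1 read) of 1 step between 0.888 and 1.18, which gave the estimated reads.

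Values were tested with limma 3.58.1 (R 4.3.3) on log2(value + 1), with a mean-variance trend, 2 groups and no covariates. A fold change of a low gene is understated on this scale. The main fit did not pair libraries by replicate number. Deviations from group means of same-numbered libraries correlated at 0.0874, 0.0271, 0.0131 and 0.158, which cannot settle whether the libraries were paired. On simulated data with 200 changed genes among 11451, 68% at a log2 change of 1 and 88% at 2 were recovered, and 3.11% of calls were unchanged genes. GENCODE M21 named 93.8% of the 17710 rows above 0.

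The members, and lists written from general knowledge, were chosen with earlier results of these data known. Named were all members, Mga, Mlxip and Mlxipl, the 2 largest called rises and falls of each list, the short, gate and repressed-target lists in full, and the 3 genes most correlated with each called member. Some items are not reported here. Alternatives covered filters, added constants, scaling, variance trend, block, depth class, GC and left-out libraries.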

Additional observations from a re-analysis of the deposited data

Results flagged for a closer look

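In 36 sets of 4 libraries, 4 held a library far from the other 3 by Dixon's criterion, where chance gives about 1 in 20, or 1.8 sets. Mlxipl was at 3.73 normalised counts in NA1 and at 3.55 in WT1, with the other 3 libraries of each group listed at 0. Any value above 0 beside 3 listed zeros meets the criterion, so the rate of 1 in 20 does not hold for both Mlxipl sets. The share of Myc in the Myc plus Mycn level per kilobase was 68.9% in NA2, with the other NA libraries between 63.9% and 64.5%. NA4 held 3887886 estimated reads, and the other NA libraries held 4909360 to 4916947.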

How the results depend on the processing

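Myc and Mycn stayed called in the same direction in all 20 alternatives each (limma adjusted p 0.000148 to 0.0253 and 0.000322 to 0.0375). Max lost its call in 9 of 20, Mxd1 in 9 of 20, Mxd3 in 12 of 19, Mxd4 in 11 of 20 and Mlxip in 6 of 20, with no change of direction. The number of members called, 6, was 2 without NA4 and WT4 and 3 with depth class as a covariate, with no low-value filter, with no variance trend and with total-count scaling, and 2 to 5 when 1 library was left out. The 39 calls in partner and target lists became 11 without NA4 and WT4 and 23 (without WT4) to 38 with 1 library out, with 24 without NA4. The 2053 calls over all genes became 524 without NA4 and WT4 and 1125 (without NA4) to 2176 with 1 library out, with 1279 without WT4. With the replicate block 5 members, 40 list genes and 2004 genes in all were called, the lost member being Mxd3 (limma adjusted p = 0.0572), and 2 of 4 NA libraries correlated best with the WT library of their number. Total-count scaling moved the share of calls that were higher from 56.1% to 41.3%. Mxi1 turned negative with GC trend removed (-0.072), without NA4 and WT4 (-0.056), with total-count scaling (-0.057) and without NA1 (-0.12), NA4 (-0.023) or WT4 (-0.020), and ran from -0.12 to 0.099 with 1 library out. Mnt turned positive with GC trend removed (0.16) and without NA1 (0.05), NA4 (0.06) or WT2 (0.15), and Mga turned negative with GC trend removed (-0.050). None of these was called, and Mnt ran from -0.13 to 0.15 with 1 library out. With median transcript lengths, chosen after seeing the data as were the left-out libraries for levels, the Myc share in NA was 70.5%, the Myc plus Mycn sums 573.5 and 493, the antagonist sums 683 and 588, and activators per antagonist 0.850 and 0.842. The causes were not tested, beyond fewer samples where libraries were left out. Models of read counts were not run. The share of whole multiples given above covers low values only, and whole reads were not accepted as recovered over the full range of values.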

Other observations

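The genes whose log2 levels ran most like each called member over the 8 libraries are given as a description, among the 9000 tested genes that averaged 50 normalised counts or more. The points share the split between NA and WT libraries, so any gene that differs strongly between the groups scores high. For Myc they were Nedd4 and Ncoa3 (Pearson r 0.989 each) and Runx2 (0.978). For Mycn they included Txnip (0.993) and Zfp41 (0.983). Max ran closest to Abhd6 (0.990), Gnai2 (0.980) and Sdc2 (0.975), Mxd1 to Dnttip2 (0.983), Tnfaip3 (0.981) and Sec13 (0.980), Mxd3 to Zbtb43 (0.970), Acat1 (0.970) and Klf10 (0.967), and Mxd4 to Ddrgk1 (0.973), Stau1 (0.962) and Dnajb12 (0.959). Txnip, the gene closest to Mycn, was also lower in the NA libraries, with WT2 the lowest WT library in both.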
